A study of Mustela putorius furo with 10 samples.

Results

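The genes described here encode the EIF2B complex and the core of the integrated stress response, the pathway by which a stressed cell slows protein synthesis. They are EIF2B1, EIF2B2, EIF2B3, EIF2B4 and EIF2B5, the eIF2alpha kinases EIF2AK3 and EIF2AK4, eIF2alpha itself (EIF2S1), and the transcription factors ATF4 and DDIT3. They were chosen by symbol, through the RefSeq ferret gene name of the transcript that each probe was designed on, and all 10 were on the array. A gene counted as measured where the ferret RNA gave a signal well above background on at least 4 of 10 arrays, which held for 9 of the 10. These 9 were read among 26303 genes tested. Of those, 9276 carry a symbol and 17027 are target sequences without a gene name, each counted as a gene, so that several can belong to 1 gene, and every share of all genes below rests on this count. EIF2B3 had been picked out by the study from these same arrays, so that its values here are no independent evidence of its direction.

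The samples were peripheral blood mononuclear cells (PBMC), the lymphocytes and monocytes that a density gradient separates from blood, of male ferrets (Mustela putorius furo) aged 3 months. Control ferrets stayed at 22 °C, and cold-exposed ferrets were kept at 4 °C for 1 week. The cold-exposed ferrets were also housed singly, which the labels do not state for the controls, so that cold and single housing cannot be told apart. All ferrets had free access to food and water, and were anaesthetised before the blood was drawn from the heart. Of 7 ferrets in each group, 6 control and 4 cold-exposed ferrets had an array, each ferret its own.

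Protein synthesis starts when eIF2, loaded with GTP, brings the initiator tRNA to the ribosome. EIF2B recharges eIF2 with GTP after each round. Its gamma and epsilon subunits, EIF2B3 and EIF2B5, form the catalytic part, while its alpha, beta and delta subunits, EIF2B1, EIF2B2 and EIF2B4, bind eIF2 and sense whether eIF2alpha is phosphorylated. PERK (EIF2AK3) phosphorylates eIF2alpha when proteins misfold in the endoplasmic reticulum (ER), and GCN2 (EIF2AK4) does so when amino acids run short. Phosphorylated eIF2 blocks EIF2B, most translation slows, and the mRNA of ATF4 is translated more. ATF4 then turns on genes of amino acid supply and, with CHOP (DDIT3), of cell death. Most of this control acts on proteins, whereas the arrays measured RNA only.

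On each array the ferret's RNA was labelled with the green dye Cy3, and a reference pool of RNA from ferret PBMC and other tissues, the same for every array, with the red dye Cy5. The values are log2 ratios of Cy3 to Cy5, and a change is the cold mean minus the control mean of these ratios. No gene of the 26303 had a limma p under 0.05 after Benjamini-Hochberg adjustment, the lowest adjusted p being 0.0576, although 1272 genes passed with cold replicate 2 left out, 633 with control replicate 5 left out and 12 with cold replicate 1 left out. Without adjustment, 24.7% of all genes had a limma p under 0.05, with 12.5% lower and 12.2% higher in the cold, and 8.64% (2272 genes) had a p under 0.01, against 1275 genes without cold replicate 3. Over all genes, the median change was -0.01, and the median size of a change was 0.149. The Cy3 signal was well above background at 50.4 to 63.5% of spots, and the Cy5 signal at 27.0 to 64.0%. The median Cy5 intensity of an array ran from 44 to 80 in control and from 48 to 152 in cold samples (two-sided exact permutation test, p = 0.0524). Markers of several blood cell types also differed between the groups. Over the measured markers, the mean log2 ratio of 7 neutrophil genes (7 of 7 with higher means in the cold) ran from 0.51 to 1.22 in control and from 1.52 to 1.94 in cold samples, that of 4 erythroid genes (4 of 4 lower) from 0.18 to 1.12 and from -0.85 to -0.06, and that of 5 platelet genes (5 of 5 higher) from -0.05 to 1.25 and from 0.74 to 1.77. The 8 measured T cell genes (7 lower) ran from 0.10 to 0.39 in control and from -0.69 to 0.12 in cold samples, and the 7 measured monocyte genes (6 higher) from 0.12 to 0.59 and from 0.20 to 1.29. With median centring 1 of 7 monocyte genes and 3 of 7 neutrophil genes had higher means, 4 of 7 and 5 of 7 in the deposited table, while the T cell genes (8 and 7 of 8 lower) kept their side. In such samples, fewer cells of a type and less RNA per cell cannot be told apart.

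Of the 9 measured genes, EIF2B3 alone was lower in every cold-exposed ferret than in every control ferret, its mean ratio being 14.2% below that of the controls. ATF4 had the largest difference of means of the 9, higher in the cold, with overlapping groups. The other 7 genes differed between the groups by less than their spread. In limma's test, 1 of 9 genes (EIF2B3) had a p under 0.05, against 24.7% of all genes, and none had a p under 0.01, against 8.64%. Without cold replicate 4, none of the 9 had a p under 0.05, against 23.3% of all genes. After adjustment over all genes none of the 9 passed, also without any 1 array. Their median change was 0.01, beside -0.01 for all genes, with 6 means higher and 3 lower in the cold, where 52% of all genes had a lower mean. Groups without overlap were found for 1 of the 9 and for 5.22% of all genes. The split was 8 and 1 for the Cy3 signal alone, 4 and 5 with the deposited values, and 1 and 8 when each array's ratios were only centred on their median. Under that centring the median of all genes was itself -0.43, against which its values here are to be read.

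**Figure D1:**
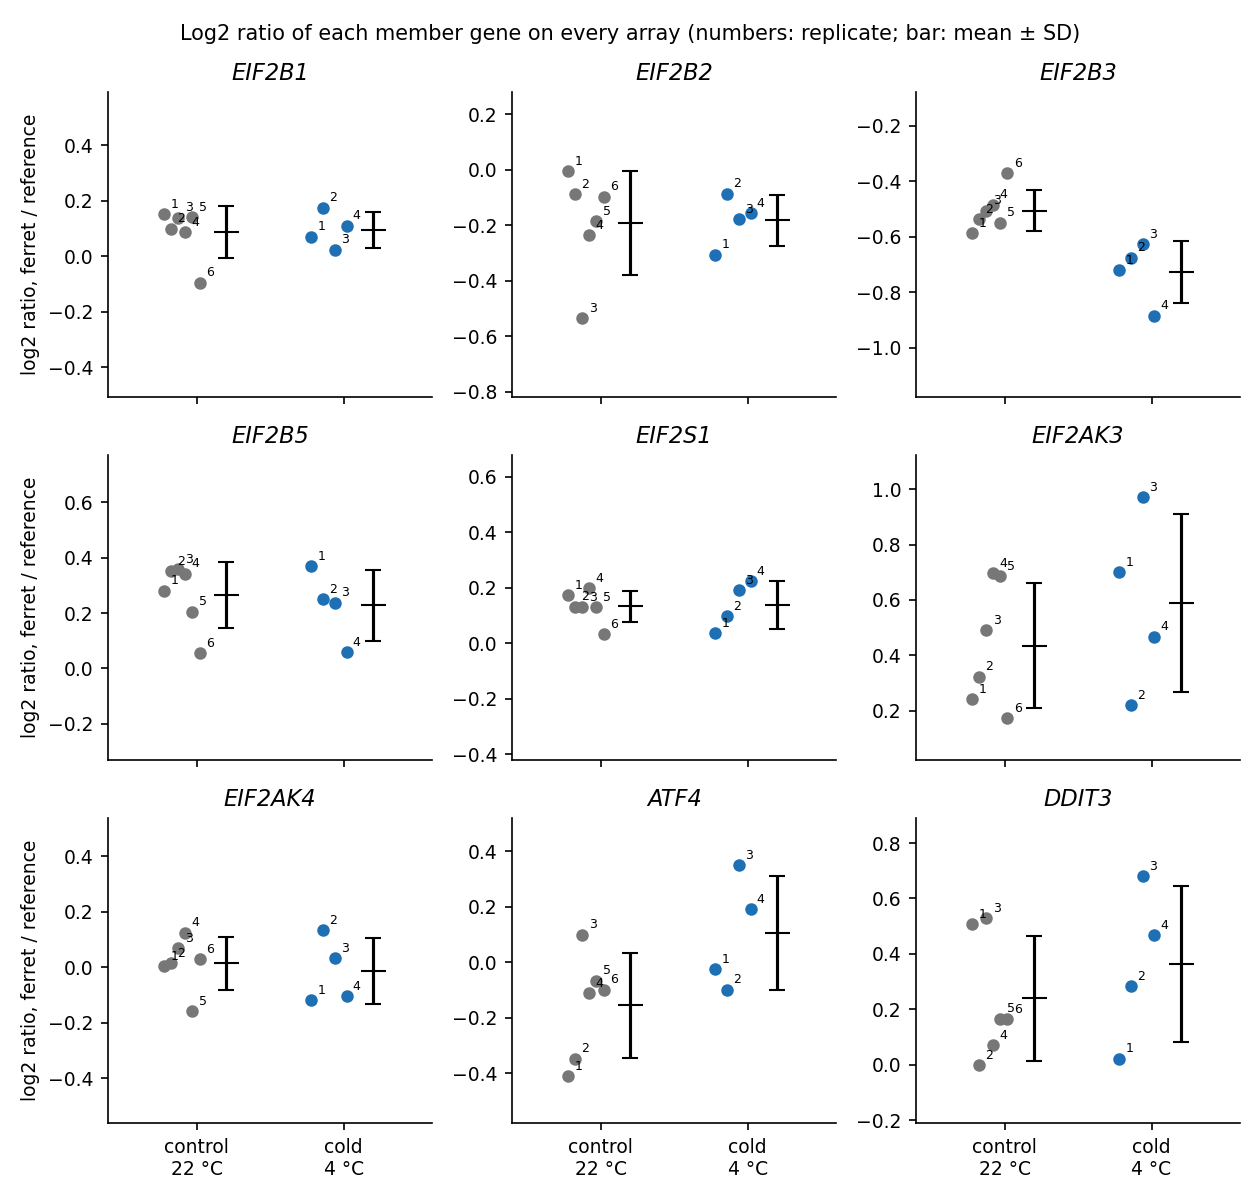
Log2 ratio of Cy3 (ferret) to Cy5 (reference) for the 9 measured genes, 1 panel a gene, with 6 control arrays in grey and 4 cold arrays in blue. Numbers are replicates, horizontal marks are means and bars are SDs, and every vertical axis spans the same range. The groups are apart only for EIF2B3, at -0.59 to -0.37 in control and -0.88 to -0.63 in cold samples.

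The log2 ratio of EIF2B3, the gamma subunit, ran from -0.59 to -0.37 over the 6 control arrays, with a median of -0.52. On the 4 cold arrays it was -0.72, -0.68, -0.63 and -0.88, for replicates 1 to 4. The cold arrays were therefore all below the control arrays, with replicate 4 farthest down and replicate 3 nearest. The means were -0.51 ± 0.07 (SD, n = 6) and -0.73 ± 0.11 (SD, n = 4), a change of -0.22 with an SE of 0.08 and a 95% interval from -0.39 to -0.05. The exact permutation test over arrays gave the smallest p that 210 splits allow (two-sided p = 0.00476), while the limma p was 0.0149 and its adjusted p 0.128. Groups that do not overlap with the cold side lower were found for 2.15% of all genes. By size the change was ordinary in these values, since 64.3% of all genes had a smaller one. Without cold replicate 4 it was -0.17 (limma, adjusted p = 0.221).

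EIF2B3 was probed at 8 places on 2 target sequences, 4 on each. Of the 8 probes, 6 were bright enough to be tested, and the other two were well above background on no array. The mean of all 6 tested probes was lower in the cold, by -0.02 to -0.42, and the groups did not overlap for 1 of them. The first target sequence differed by -0.25 (two-sided exact permutation test, p = 0.00476) and the second by -0.19 (exact permutation test, p = 0.0762). Probes of 1 gene read the same RNA and are no replicates of the condition. Taking the median over probes in place of the mean gave -0.17 (limma, adjusted p = 0.302).

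The channels were also read apart. The Cy3 signal alone, quantile normalized between arrays, averaged 11.6 ± 0.11 (log2 intensity, SD, n = 6) for control ferrets and 11.3 ± 0.10 (SD, n = 4) for cold-exposed ferrets. The Cy3 change was -0.27 (limma, adjusted p = 0.1), and all 6 tested probes were lower in this channel too. In this channel the groups overlapped, cold replicate 2 and control replicate 3 both lying at 11.4 (two-sided exact permutation test, p = 0.0143). The Cy5 signal of the reference differed by -0.02 (limma, adjusted p = 0.935). EIF2B3 was also lower in the cold with the values of the deposited table, by -0.29 (limma, adjusted p = 0.253). With median centring it differed by -1.09 (limma, adjusted p = 0.164), where the median of all genes was -0.43.

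**Figure D2:**
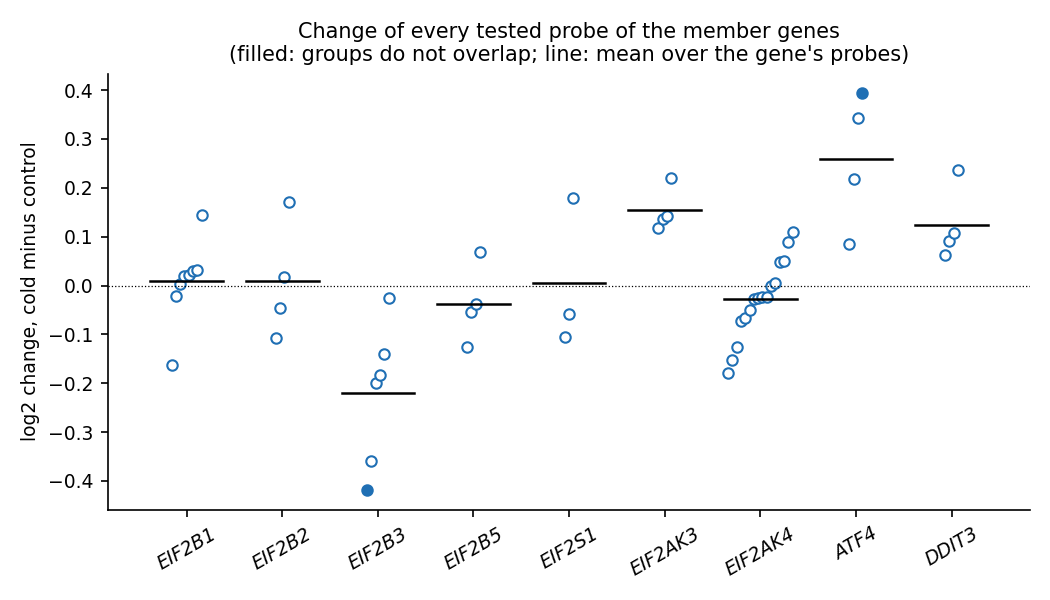
Log2 change, cold minus control, of every tested probe of the 9 measured genes. Circles are probes, filled where the 6 control and 4 cold arrays do not overlap, and lines are means over a gene's probes. All 6 probes of EIF2B3 lie below 0, and all 4 of ATF4, EIF2AK3 and DDIT3 lie above it on this scale, which turns for these 3 genes under other scalings given in the text.

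The other measured EIF2B subunits had overlapping groups. For EIF2B1, the alpha subunit, the log2 ratio ran from -0.09 to 0.15 in control, with a median of 0.12, and was 0.07, 0.18, 0.02 and 0.11 on the 4 cold arrays. The cold arrays lay within or just above the control range, and only control replicate 6 stood below 0. Its change was 0.01 (95% interval -0.15 to 0.17, limma, adjusted p = 0.959). It turned to -0.20 with processed intensities and to -0.15 with median centring (0.27 relative to all genes).

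For EIF2B2, the beta subunit, the log2 ratio ran from -0.53 to -0.004 in control, with a median of -0.14, and was -0.31, -0.09, -0.18 and -0.16 on the cold arrays. The cold arrays all lay inside the control range, which control replicate 3 stretched downward. The change was 0.01 (95% interval -0.22 to 0.24, limma, adjusted p = 0.969). It turned to -0.24 in the deposited table and to -0.66 with median centring (-0.23 relative to all genes).

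EIF2B5 encodes the epsilon subunit, which holds the exchange activity that EIF2B3 assists. Its log2 ratio ran from 0.06 to 0.36 in control, with a median of 0.31, and was 0.37, 0.25, 0.24 and 0.06 on the cold arrays. Both groups covered the same span. The change was -0.04 (95% interval -0.23 to 0.16, limma, adjusted p = 0.83). Its Cy5 signal in the reference was higher on the cold arrays, by 0.21 on the log2 scale (limma, adjusted p = 0.517), and did not overlap with the control arrays, although the reference RNA was the same. With the processed intensities of the scanner software, in which the ratio of EIF2B5 differed by -0.46, its limma adjusted p was 0.214. The change turned to 0.06 in the Cy3 signal alone. It was -0.26 in the deposited table and -0.61 with median centring, where the median of all genes was -0.43.

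EIF2B4, the delta subunit, was not measured. Its 12 probes on 3 target sequences were each well above background on at most 2 control arrays and at most 2 cold arrays, so no ratio is given.

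Whether EIF2B3 shifted differently from its partners was tested on the difference of the 2 genes within each array, which does not move with a constant shift of an array. EIF2B3 less EIF2B1 differed by -0.23 (95% interval -0.46 to 0.00, exact permutation test, two-sided p = 0.0429). EIF2B3 less EIF2B2 also differed by -0.23 (95% interval -0.51 to 0.05, exact permutation test, p = 0.081), and EIF2B3 less EIF2B5 by -0.18 (95% interval -0.41 to 0.04, exact permutation test, p = 0.0714). After adjustment over the 4 pairs tested, each of these exact p-values became 0.108. The test thus did not separate EIF2B3 from the other subunits, nor do intervals of this width show that the subunits moved alike. With the Cy3 signal alone the same differences were -0.27, -0.38 and -0.33, with adjusted exact p-values of 0.0444, 0.019 and 0.0444. With median centring they were -0.94, -0.43 and -0.48, with adjusted exact p-values of 0.0635, 0.0571 and 0.0635. In the deposited table they were -0.48, -0.05 and -0.03, with adjusted exact p-values of 0.190, 0.871 and 0.871. With the processed intensities they were -0.06, -0.23 and 0.21, with adjusted exact p-values of 0.824, 0.676 and 0.676.

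EIF2S1, the eIF2alpha subunit that the stress kinases phosphorylate, ran from 0.03 to 0.20 in control, with a median of 0.13. Its log2 ratio was 0.04, 0.10, 0.19 and 0.22 on the cold arrays. The groups overlapped almost fully. The change was 0.00 (95% interval -0.15 to 0.16, limma, adjusted p = 0.975), but this gene was dim, since none of its 3 tested probes was well above background on all 10 arrays. In the deposited table its change was 0.60 (limma, adjusted p = 0.249).

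EIF2AK3 encodes PERK, the kinase of the ER membrane. Its log2 ratio ran from 0.17 to 0.70 in control, with a median of 0.41, and was 0.70, 0.22, 0.97 and 0.47 on the cold arrays. Cold replicate 3 was the highest of the 10 arrays, cold replicate 2 lay near the lowest, and the rest were mixed. The change was 0.15 (95% interval -0.19 to 0.50, limma, adjusted p = 0.575), and 0.03 without cold replicate 3. All 4 probes were higher in the mean, but the direction turned with the processed intensities (-0.37) and with median centring (-0.29, or 0.13 relative to the median of all genes).

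The ratios were set against the brightness of the reference channel over the 10 arrays, as in the plot of ratio against Cy5 intensity, and no relation passed adjustment over the 9 genes. For EIF2AK3, Pearson's r was 0.72 (permutation p = 0.019) and Spearman's rho 0.68 (permutation p = 0.0358), in a family of 9 genes in which the adjusted permutation p-values were 0.171 and 0.161. Without cold replicates 1 and 3, whose brightness was farthest from the median, r was 0.63, and among the 6 control arrays alone it was 0.79. With the brightness in the fit the change of EIF2AK3 was -0.14 (limma, adjusted p = 0.779). The Cy3 signal alone, which does not use the reference, differed by 0.06 (limma, adjusted p = 0.799). For ATF4, r was 0.57 (permutation p = 0.0864, adjusted 0.201), rho 0.71 (permutation p = 0.0271, adjusted 0.161) and r without cold replicates 1 and 3 0.62, and with the brightness in the fit its change was 0.17 (limma, adjusted p = 0.741). For EIF2AK4, r was -0.63 (permutation p = 0.0528, adjusted 0.201), rho -0.33 (permutation p = 0.351, adjusted 0.526) and r without these arrays -0.67. For EIF2B3, r was -0.57 (permutation p = 0.0892, adjusted 0.201), rho -0.47 (permutation p = 0.174, adjusted 0.312), r without these arrays -0.54 and r among the control arrays alone -0.04, and with the brightness in the fit its change was -0.21 (limma, adjusted p = 0.516).

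**Figure D3:**
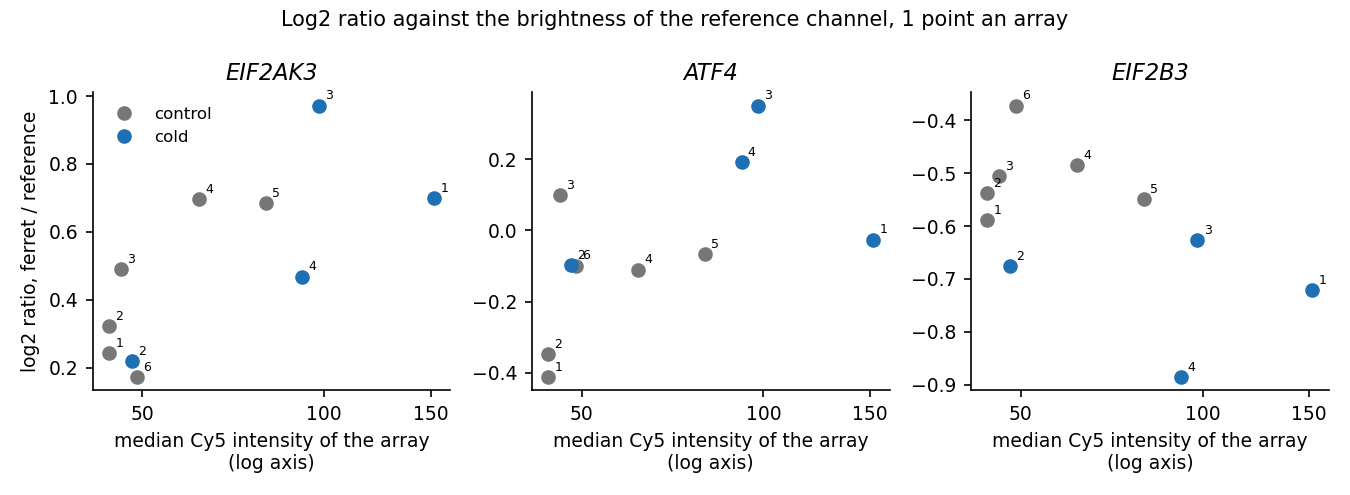
Log2 ratio of EIF2AK3, ATF4 and EIF2B3 (vertical) against the median Cy5 intensity of the array (horizontal, log axis), 1 point an array, control in grey and cold in blue, numbers giving the replicate. EIF2AK3 is high on the brighter arrays (r = 0.72), as is ATF4 less closely (r = 0.57), and EIF2B3 is low on them (r = -0.57). No control array is brighter than 80, and of the cold arrays only replicate 2, at 48, lies in the control range.

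EIF2AK4 encodes GCN2, the kinase that senses uncharged tRNA, and had 16 tested probes on 4 target sequences, all well above background on all arrays. Its log2 ratio ran from -0.16 to 0.12 in control, with a median of 0.02, and was -0.12, 0.13, 0.03 and -0.10 on the cold arrays. The cold values were spread over nearly the whole control range. The change was -0.03 (95% interval -0.21 to 0.15, limma, adjusted p = 0.864), with 11 of 16 probes lower. Its direction turned in the Cy3 signal alone, to 0.15, with 0 of 16 probes lower, and in the deposited table, to 0.05. EIF2AK3 less EIF2AK4 differed by 0.18 (95% interval -0.27 to 0.64, exact permutation test, p = 0.376, and the same after adjustment over the 4 pairs), and turned to -0.10 in the Cy3 signal alone, -0.11 with processed intensities, -0.02 with median centring and -0.03 in the deposited table.

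ATF4, the transcription factor whose mRNA is translated more when EIF2B is blocked, ran from -0.41 to 0.10 in control, with a median of -0.10. Its log2 ratio was -0.03, -0.10, 0.35 and 0.19 on the cold arrays. Cold replicates 3 and 4 were above every control array, cold replicates 1 and 2 were not, and control replicates 1 and 2 were the lowest of all. The means were -0.16 ± 0.19 (SD, n = 6) and 0.10 ± 0.21 (SD, n = 4), a change of 0.26 with a 95% interval from -0.01 to 0.53 (limma, adjusted p = 0.215, two-sided exact permutation p = 0.081). All 4 probes were higher in the mean, by 0.08 to 0.39, and 1 did not overlap.

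The change of ATF4 depended on which values were used. The Cy3 signal alone gave 0.30 (limma, adjusted p = 0.118), averaging 14.8 ± 0.17 (log2 intensity, SD, n = 6) for control ferrets and 15.1 ± 0.12 (SD, n = 4) for cold-exposed ferrets, while the Cy5 signal of the reference was 0.15 higher (limma, adjusted p = 0.613). The direction turned in the deposited table (-0.24, limma, adjusted p = 0.566) and with median centring (-0.81, or -0.39 relative to the median of all genes). Without cold replicate 3 the change was 0.18. Both ATF4 and EIF2B3 kept their direction within each slide position, of which the first held 4 control and 2 cold arrays and the second 2 and 2. EIF2B3 differed by -0.20 and -0.23 within the 2 positions, and ATF4 by 0.18 and 0.25. With the position as a block, ATF4 differed by 0.21 (limma, adjusted p = 0.203) and EIF2B3 by -0.21 (limma, adjusted p = 0.158).

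DDIT3 encodes CHOP, the factor that ATF4 induces when stress lasts. Its log2 ratio ran from -0.002 to 0.53 in control, with a median of 0.17, and was 0.02, 0.28, 0.68 and 0.47 on the cold arrays. Control replicates 1 and 3 were above every cold array but replicate 3, so that the groups overlapped widely. The change was 0.12 (95% interval -0.20 to 0.45, limma, adjusted p = 0.638), and 0.02 without cold replicate 3. It turned in the deposited table (-0.14) and with median centring (-0.57, or -0.14 relative to all genes), and was 0.01 with the processed intensities.

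**Figure D4:**
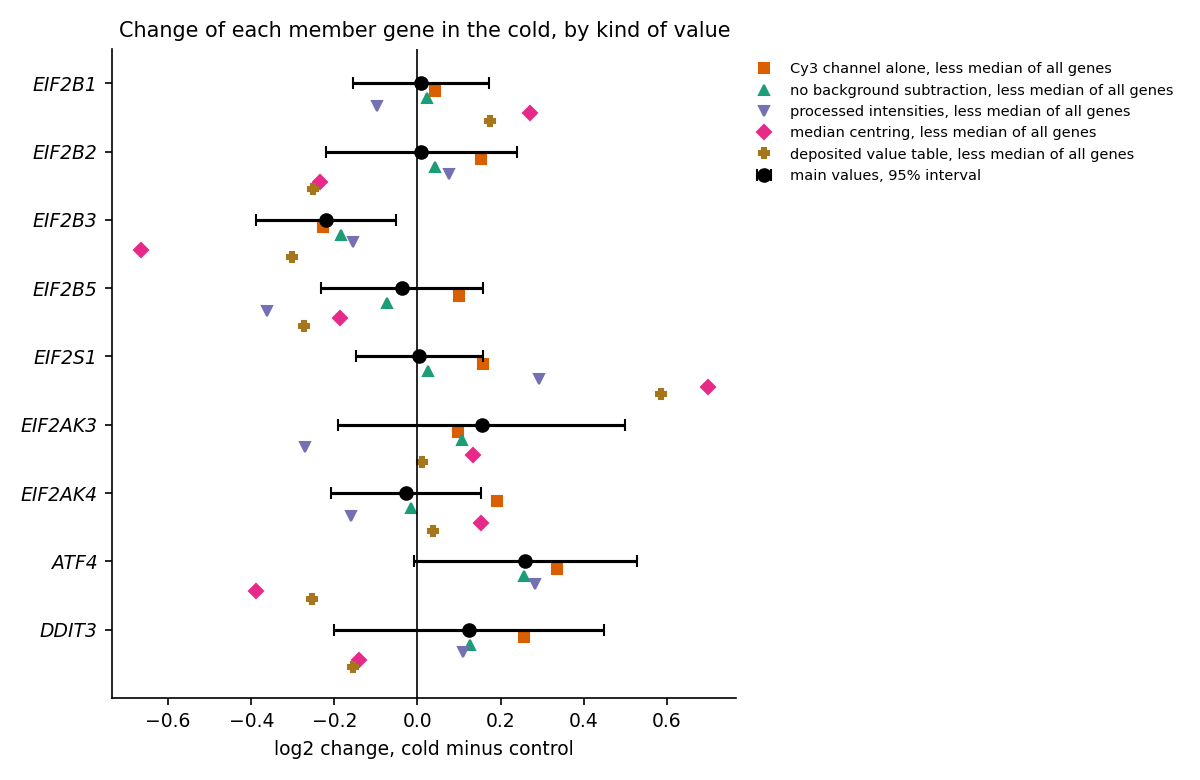
Log2 change, cold minus control, of the 9 measured genes. Black points are the main values with their 95% intervals, and coloured symbols are other kinds of value, each less its median over all genes. EIF2B3 is below 0 for every kind of value shown, whereas ATF4, at 0.26 in the main values, lies at -0.39 with median centring and at -0.25 in the deposited table.

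Cold replicate 3 held the highest of the 10 values for EIF2AK3, ATF4 and DDIT3. Across all genes this array held the highest value for 19.1%. It also had the lowest mean ratio of T cell markers (-0.69) and the highest of monocyte (1.29), neutrophil (1.94) and platelet markers (1.77). The part of these markers in the values of EIF2AK3, ATF4 and DDIT3 was not tested. EIF2B3 was nearest to the control arrays on this array, at -0.63, and lowest on cold replicate 4, at -0.88, where the mean ratio of T cell markers was 0.03, below every control array, and that of monocyte markers 0.20. The neutrophil (1.62) and platelet markers (1.47) of cold replicate 4 were above those of every control array. The part of these markers in the values of EIF2B3 was not tested.

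Of 11 listed partners of EIF2B and eIF2 in initiation, 9 were measured, with lower means for 6 and higher means for 3. At a limma p under 0.05 0 were higher and 2 lower, against 12.2% and 12.5% of all genes, and the same 2 had a limma p under 0.01, against 3.43% of all genes lower at that threshold. The median change of the list was -0.09. The Cy3 signal alone gave a median of 0.004, with 5 higher and 4 lower and 0 of 9 with a p under 0.05, against 24.8% of all genes. All 9 were lower with median centring (median -0.83, or -0.41 relative to all genes) and 8 of 9 in the deposited table (median -0.35). EIF5B, the GTPase that joins the ribosomal subunits at the start codon, averaged -0.00231 ± 0.11 (SD, n = 6) in control and -0.33 ± 0.20 (SD, n = 4) on cold arrays, so that it differed by -0.33 (limma, adjusted p = 0.109). Its values on the cold arrays were -0.52, -0.27, -0.46 and -0.07, of which only replicate 4 reached into the control range. DENR, which helps to recycle ribosomes and to reinitiate, differed by -0.50 (limma, adjusted p = 0.114) in the ratio but by -0.09 in the Cy3 signal alone. Its partner MCTS1 differed by -0.25 (limma, adjusted p = 0.323), and EIF2A, an alternative carrier of initiator tRNA, by 0.23 (limma, adjusted p = 0.268). Without cold replicate 1 MCTS1 was at -0.13, and without cold replicate 3 EIF2A was at 0.11. In the deposited table MCTS1 turned to 0.10 and EIF2A to -0.06. With median centring EIF2A was at -0.48, where the median of all genes was -0.43. The beta and gamma subunits of eIF2, EIF2S2 and EIF2S3, differed by -0.01 and 0.05.

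Among kinases, phosphatases and regulators of eIF2alpha, 8 of 12 listed genes were measured. The kinases EIF2AK1 and EIF2AK2, and PPP1R15A and OMA1, were not matched to a target sequence by symbol, so nothing is said of them. No measured gene of this list had a limma p under 0.01, against 8.64% of all genes. At a p under 0.05 there was 1, lower in the cold, against 12.5%. The median change was 0.01 (0.02 in the Cy3 signal alone), but -0.29 in the deposited table and -0.74 with median centring (-0.32 relative to all genes), each with 7 of 8 lower. The gene with a p under 0.05 was PPP1CC, a catalytic subunit of the phosphatase that removes the phosphate from eIF2alpha, with a control mean of 0.70 ± 0.21 (SD, n = 6), a cold mean of 0.32 ± 0.23 (SD, n = 4) and a change of -0.38 (limma, adjusted p = 0.132). The other catalytic subunits did not share a direction, with PPP1CB at -0.22 (limma, adjusted p = 0.338) and PPP1CA at 0.16 (limma, adjusted p = 0.337), the latter turning to -0.01 in the Cy3 signal alone, to -0.29 in the deposited table and to -0.78 with median centring. PPP1R15B, which guides the phosphatase to eIF2alpha, differed by 0.04, and GCN1, which activates GCN2, by -0.01. DNAJC3, an inhibitor of PERK, differed by 0.16 (limma, adjusted p = 0.573) and by -0.03 without cold replicate 3. With median centring, where the median of all genes was -0.43, DNAJC3 was at -0.41, and in the deposited table it was at -0.03. The Cy3 signal alone gave 0.42 for it (limma, adjusted p = 0.0716), and in these values 2 genes of the list, DNAJC3 higher and PPP1CC lower, had a p under 0.01, against 9.84% of all genes. With 1 array left out, PPP1CC was at -0.29 without cold replicate 4 and no longer had a p under 0.05, PPP1CB was at -0.15 without control replicate 6 and PPP1CA at 0.09 without cold replicate 4.

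Of 38 listed targets of ATF4 and CHOP, 27 were measured. At a limma p under 0.05, 6 were higher and 3 lower in the cold, against 12.2% and 12.5% of all genes, and 2 had a p under 0.01, both higher, against 5.21%. The median change was 0.05. With median centring the split at a p under 0.05 turned to 1 higher and 5 lower (median -0.44, or -0.02 relative to all genes), where 29.8% of all genes had such a p. It was 4 and 3 in the deposited table (median -0.02), against 19.8% of all genes, and 4 and 2 in the Cy3 signal alone (median 0.18), against 24.8%. In the Cy3 signal alone 1 of the 27 passed adjustment, as did 741 of all 26303 genes. EIF4EBP1, which holds back cap-dependent translation, ran from -0.59 to -0.09 in control and was 0.33, 0.22, 0.33 and 0.02 on the cold arrays. These groups did not overlap, as for 3.07% of all genes on the higher side. EIF4EBP1 differed by 0.47 (limma, adjusted p = 0.0736), by 0.18 in the Cy3 signal alone and by -0.35 with median centring (0.08 relative to all genes). Its Cy5 signal differed by -0.25.

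ATF5, a transcription factor of the same family that is also translated under stress, differed by 0.52 (limma, adjusted p = 0.0904). Its values on the cold arrays were 0.66, 0.13, 0.83 and 0.88, against -0.09 to 0.30 in control, so that only cold replicate 2 overlapped. ATF5 was higher with every kind of value tried, from 0.26 to 0.91. Leaving out 1 array at a time gave 0.44 (without cold replicate 4) to 0.69 (without cold replicate 2), with limma adjusted p-values from 0.0147, also without cold replicate 2, to 0.223. CEBPB, a leucine zipper factor that dimerises with CHOP, differed by 0.23 (limma, adjusted p = 0.153), and was likewise higher throughout. BCL2L11, the death factor BIM induced by CHOP, differed by 0.33 (limma, adjusted p = 0.137), with a turn to -0.38 under median centring and to -0.0004 in the deposited table. Neither kept a p under 0.05 in every set of 9 arrays, CEBPB being at 0.16 without cold replicate 3 and BCL2L11 at 0.27 without cold replicate 2.

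Further targets were named after their values were seen. ASNS, the asparagine synthetase gene with a textbook ATF4 element, differed by -0.02 (limma, adjusted p = 0.922), and TRIB3, a feedback inhibitor of ATF4, by -0.45 (limma, adjusted p = 0.163). CHAC1, which degrades glutathione, differed by 0.24 (limma, adjusted p = 0.253) and ATF3 by 0.05 (limma, adjusted p = 0.933). DDIT4, an inhibitor of mTORC1, and ERO1A, an oxidase of the ER, differed by 0.55 (limma, adjusted p = 0.189) and 0.50 (limma, adjusted p = 0.189), and were at -0.39 and -0.06 with median centring, where the median of all genes was -0.43.

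The aminoacyl-tRNA synthetases, which load tRNAs with amino acids and belong to the ATF4 programme, were measured for 11 of 13 listed, with 6 means higher and 5 lower. In limma's test 0 of 11 had a p under 0.05, against 24.7% of all genes, or under 0.01, against 8.64%. The median change was 0.03 (0.007 in the Cy3 signal alone), but -0.34 in the deposited table, with 10 of 11 lower, and -0.82 with median centring (-0.39 relative to all genes), with 11 of 11 lower and 2 of them at a p under 0.05, against 29.8% of all genes. WARS1 had the largest change, 0.41 (limma, adjusted p = 0.353), which came from cold replicate 4 at 1.32, while the other cold arrays lay between -0.31 and -0.02. Without that array it was 0.04. AARS1 differed by -0.17 (limma, adjusted p = 0.377), IARS1 by -0.14 (limma, adjusted p = 0.408) and SARS1 by 0.09 (limma, adjusted p = 0.631). Without cold replicate 3 AARS1 was at -0.11 and IARS1 at -0.09 (likewise without cold replicate 4), and without cold replicate 2 SARS1 was at 0.01.

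ER chaperones and genes of the IRE1 and ATF6 arms, which handle misfolded proteins beside PERK, were measured for 22 of 28 listed. HSP90B1, CANX, PDIA6, XBP1, ATF6 and CRELD2 were not matched to a target sequence by symbol. Means were higher in the cold for 16 of the 22, where 52% of all genes had a lower mean. At a limma p under 0.05, 5 were higher and 0 lower, against 12.2% and 12.5% of all genes, and 3 of the 5 had a p under 0.01, against 5.21% of all genes on the higher side. With median centring the split at a p under 0.05 was 0 higher and 3 lower (29.8% of all genes had such a p), 1 and 1 with the deposited values (19.8%), and 6 and 0 in the Cy3 signal alone (24.8%). The median change was 0.14, but -0.22 in the deposited table and -0.67 with median centring (-0.24 relative to all genes). MANF, a secreted ER stress protein, ran from -0.21 to 0.23 in control and was 0.53, 0.71, 0.29 and 0.32 on the cold arrays. Its groups did not overlap, as for 3.07% of all genes on the higher side. MANF differed by 0.45 (limma, adjusted p = 0.083), EDEM1, which hands misfolded glycoproteins to degradation, by 0.39 (limma, adjusted p = 0.102), and CREB3L2, an ER membrane transcription factor, by 0.39 (limma, adjusted p = 0.11). ERN1, the gene of IRE1 itself, differed by 0.33 (limma, adjusted p = 0.164) and HSPA5, the chaperone BiP, by 0.36 (limma, adjusted p = 0.193). Without cold replicate 3 ERN1 was at 0.20 (limma, adjusted p = 0.37), and it had no p under 0.05 without control replicate 4 or cold replicate 1 either. In the Cy3 signal alone CREB3L2 differed by 0.51 (limma, adjusted p = 0.0489). There 2 of the 22 genes passed adjustment, as did 741 of all 26303 genes. CREB3L2 was higher with every kind of value tried, whereas MANF, EDEM1, ERN1 and HSPA5 turned with median centring, to -0.45, -0.26, -0.22 and -0.71, and HSPA5 also in the deposited table, to -0.14. Relative to the median of all genes under that centring, EDEM1 and ERN1 were higher, by 0.17 and 0.21, and MANF was at -0.02. HSPA5, at -0.71, was below that median of -0.43.

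Plasma cells secrete large amounts of antibody and carry much ER. All 4 measured plasma cell markers had higher means in the cold (2 of 4 with median centring and 3 of 4 in the Cy3 signal alone), with MZB1, an ER protein of antibody assembly, at 0.75 (limma, adjusted p = 0.0822) and DERL3 at 0.56 (limma, adjusted p = 0.107). The mean ratio of these markers ran from 0.35 to 1.33 in control and from 1.13 to 1.58 in cold samples. Their part in the values of the ER genes was not tested.

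**Figure D5:**
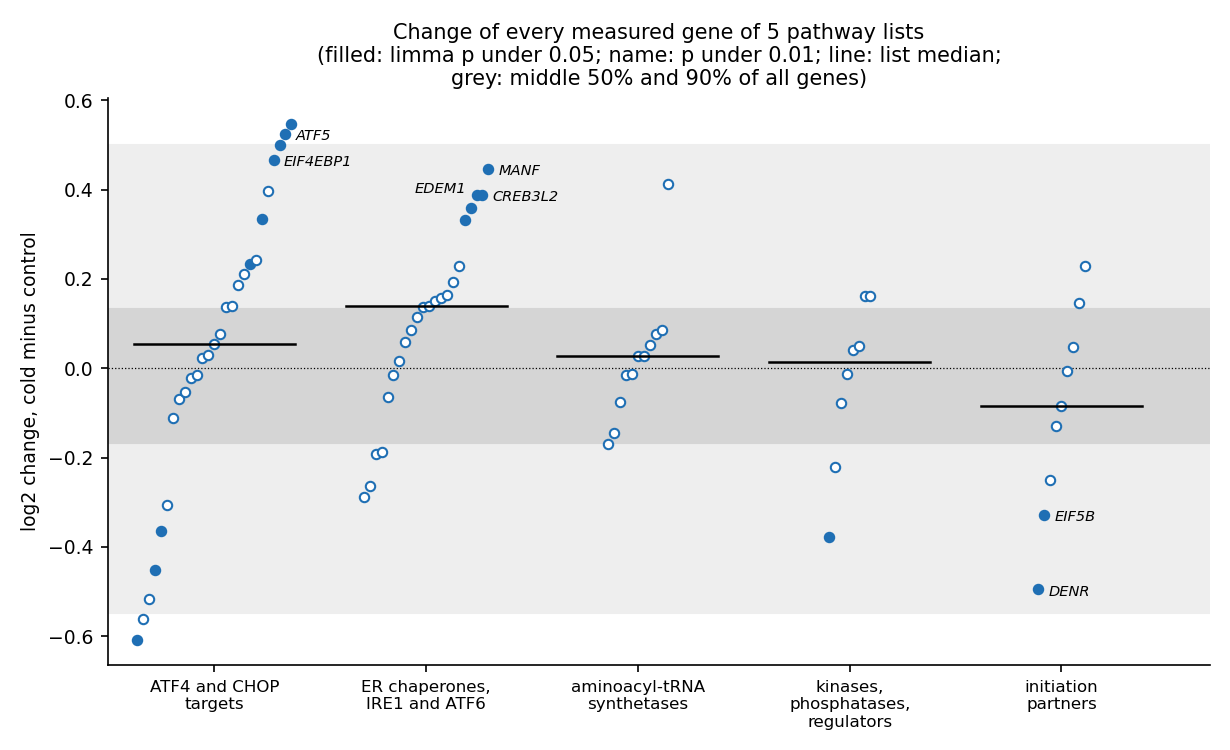
Log2 change, cold minus control, of every measured gene of the 5 pathway lists. Circles are genes, filled where the limma p is under 0.05 and named where it is under 0.01, lines are list medians, and the grey bands hold the middle 50% and 90% of all 26303 genes. The medians run from -0.09 for the initiation partners to 0.14 for the ER list, an order that other kinds of value do not keep (with Cy3 alone the ATF4 and CHOP targets have the highest median, 0.18), on a scale that turns under median centring for ATF4 targets such as EIF4EBP1 and ER genes such as MANF.

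As a description of likeness, each gene was centred on its own mean and compared with 9275 other named genes by the root mean square difference over the 10 arrays. Among the nearest to EIF2B3 were TATDN3 (0.0549) and CEP152 (0.0703), against a median of 0.231 over all genes compared. Nearest to ATF4 was the unnamed locus LOC101694443 (0.0639), followed by EBAG9 (0.0668) and CUNH8orf58 (0.0673), against a median of 0.289. For DDIT3 the nearest were PRELID3B (0.112), CALCOCO2 (0.119) and IL10 (0.121), against a median of 0.293. EIF2B3 and ATF4 therefore had closer neighbours than DDIT3.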

How the data were processed

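The authors deposited, per the file headers, the median intensity and local background of each spot in both channels, processed intensities and flags, and their own log2 table for the target sequences. It was compared with the unnormalized log2 ratios by correlation of each array's deviations from the gene means (r = 0.98 to 0.99 for 9 arrays, 0.80 for cold replicate 4). Its centring and the step that set apart cold replicate 4 stayed unknown, and the medians of its columns ran from 7.86 to 8.78. The median signals took the place of the mean signals that had been planned. Background was corrected by normexp (offset 50) and ratios were normalized by loess (span 0.3, 4 iterations) in limma 3.58.1 under R 4.3.3. Control and outlier spots were left out, and spots, then probes, were averaged. A probe was kept where Cy3 was well above background for a share of 0.5 or more of the probe's spots on 4 or more arrays. Of 45328 target sequences, 21104 were named as 12918 genes through RefSeq, and 2 genes with missing values were left out. The groups were tested with lmFit and eBayes, and pairs of genes by exact permutation. The number of arrays limits the precision. Alternatives were no background subtraction, processed intensities, median centring, Cy3 alone, the deposited table, 2 other filters, the median over probes, the methods' t-test, slide position or replicate number as a block, leaving out each array and, added after seeing the data, the reference brightness as a covariate. The test was checked on simulated data. The members and gene lists were chosen with earlier results of these data known. Named from each list were the genes with a p under 0.01 and others up to 4 by lowest p, and further genes of a list were named after their values were seen. One gene that the likeness rule named is not reported here.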

Additional observations from a re-analysis of the deposited data

Results flagged for a closer look

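Control replicate 6 stood apart from the other 5 control arrays, by Dixon's test at the 95% level, in 3 of the 66 groups of values checked. The groups share arrays and genes, so these flags are not independent of each other. This array also held the lowest of the 10 values for 4 of the 9 measured genes, against 10.5% of all genes. For EIF2B1 it was at -0.0950, with the nearest control array at 0.09. For EIF2B3 less EIF2B1 it was at -0.28, with the nearest at -0.57, and for EIF2B3 less EIF2B5 at -0.43, with the nearest at -0.75. Without it, these 2 differences between genes differed by -0.17 and -0.11 in place of -0.23 and -0.18, and EIF2B3 alone by -0.19.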

How the results depend on the processing

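EIF2B3 was lower in the cold in all 12 alternatives, from -1.09 to -0.16 on the log2 scale. DENR, EIF5B, PPP1CC, PPP1CB, ATF5, CEBPB, IARS1 and CREB3L2 also kept their direction. None of the 9 passed adjustment in any alternative. The cause of the shifts below was not tested. Processed intensities gave EIF2B1 -0.20, EIF2B2 -0.0235, EIF2AK3 -0.37, EIF2B3 less EIF2B5 0.21, EIF2AK3 less EIF2AK4 -0.11, 1505 genes with a p under 0.01 (2272 as reported) and 2 of the 9 genes with a p under 0.05 (1 as reported), against 19% of all genes. Median centring, with -0.43 for all genes, gave EIF2B1 -0.15, EIF2B2 -0.66, EIF2AK3 -0.29, ATF4 -0.81, DDIT3 -0.57, EIF2A -0.48, PPP1CA -0.78, DNAJC3 -0.41, EIF4EBP1 -0.35, BCL2L11 -0.38, WARS1 -0.0887, SARS1 -0.82, MANF -0.45, EDEM1 -0.26, ERN1 -0.22, EIF2AK3 less EIF2AK4 -0.0196 and 1163 genes with a p under 0.01. Cy3 alone gave EIF2B5 0.0617, EIF2AK4 0.15, PPP1CA -0.0118, EIF2AK3 less EIF2AK4 -0.0951, EIF2B3 less EIF2B1 -0.27, EIF2B3 less EIF2B2 -0.38, EIF2B3 less EIF2B5 -0.33, 741 genes past adjustment (0 as reported) and 2 of the 9 with a p under 0.05, against 24.8%. The deposited table gave EIF2B2 -0.24, EIF2AK4 0.0488, ATF4 -0.24, DDIT3 -0.14, EIF2A -0.0621, MCTS1 0.0961, PPP1CA -0.29, DNAJC3 -0.0300, BCL2L11 -0.000376, SARS1 -0.33, EIF2AK3 less EIF2AK4 -0.0273, 1093 genes with a p under 0.01 and 0 of the 9 with a p under 0.05, against 19.8%. Probes bright on all 10 arrays left out EIF2S1 and MCTS1 and let 115 genes pass adjustment. The median over probes gave EIF2B2 -0.0760, EIF2B5 0.0345, EIF2S1 -0.0260 and 0 of the 9 with a p under 0.05, against 24%. The slide position as a block gave EIF2S1 -0.00482, 5 genes past adjustment and 2 of the 9 with a p under 0.05, against 23%. The reference brightness as a covariate, chosen after seeing the data, gave EIF2AK3 -0.14, EIF2AK4 0.0860, MCTS1 0.0255, AARS1 0.0300, 699 genes with a p under 0.01 and 0 of the 9 with a p under 0.05, against 10.4%. The replicate block gave EIF2B1 -0.0239, EIF2S1 -0.0210 and 2459 genes with a p under 0.01. For arrays of the same number, the deviations from the group means correlated at -0.30, 0.54, 0.10 and -0.19. Whether a shared number pairs ferrets was not tested. The methods' t-test called 1726 genes at their threshold, 0 after adjustment. Leaving out 1 array at a time gave -0.0282 to 0.0321 for EIF2B1, -0.0599 to 0.0502 for EIF2B2 and -0.0837 to 0.0195 for EIF2B5. It gave -0.0765 to 0.00726 for EIF2AK4, -0.0241 to 0.0383 for EIF2S1 and -0.0288 to 0.269 for DNAJC3. From 0 to 1272 genes passed adjustment, the most without cold replicate 2. From 1275 (without cold replicate 3) to 3386 (without cold replicate 2) genes had a p under 0.01 (1425 and 1504 without control replicates 1 and 2). Without cold replicate 4, 0 of the 9 had a p under 0.05, against 23.3% of all genes. The count was 2 of the 9 without control replicate 3 (21.7% of all genes), cold replicate 1 (18.3%) or cold replicate 2 (30.1%).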

Other observations

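FGF21, a hormone that ATF4 induces in other tissues, was singled out after its values were seen. It differed by -0.61 (limma, adjusted p = 0.17) in the log2 ratio, by -1.32 in the Cy3 signal alone and by -0.16 in the deposited table.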
